A study of Homo sapiens with 21 samples.

Results

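Phosphorylation of the alpha subunit of eIF2 is the point at which several stress signals meet to slow protein synthesis. The mRNAs described are those of 10 genes around that step: the 4 kinases that add the phosphate (EIF2AK1, EIF2AK2, EIF2AK3 and EIF2AK4), the 2 regulatory subunits that direct its removal (PPP1R15A and PPP1R15B), the substrate EIF2S1, the eIF2B subunit EIF2B5, the GCN2 activator GCN1 and the mitochondrial protease OMA1. They were found by gene name among the 58735 genes of the deposited count table, and all 10 passed the filter on low counts that left 16196 genes for testing. The cells, labelled HepG2, a line from a human liver tumour, were kept for 6 h in DMEM without serum that held coumarin, a plant-derived fragrance compound, at 0.001, 0.01, 0.1, 1, 10 or 100 µM, or that held none (0 µM, the untreated control). Each of the 7 groups had 3 libraries, called biological replicates in the design text. The edgeR p-values between groups rest on the spread between libraries of the same group. The same 3 control libraries serve every comparison with 0 µM.

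eIF2 carries the initiator tRNA to the ribosome, and eIF2B recharges it with GTP after each round. When the alpha subunit is phosphorylated, eIF2 blocks eIF2B, most translation slows, and a few mRNAs such as ATF4 are translated better. PPP1R15A and PPP1R15B recruit protein phosphatase 1 to undo the mark. These steps depend on protein activity, and phosphorylation was not measured here, so the values below are mRNA levels only.

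Total counts per library ranged from 27984517 to 43704155. Against the label, 0 of 10 hepatocyte markers reached 1 CPM (counts scaled by library size), and ALB, APOC3, FGB and SERPINA1 had 0 reads. Their summed level was 0.0284 to 0.0660 CPM at 100 µM and 0.0275 to 0.0589 CPM at 0 µM. Of 4 biliary markers 1 reached 1 CPM, the keratin KRT7, and EPCAM had 0 reads; their sum was 1114 to 1176 CPM at 100 µM and 1113 to 1249 CPM at 0 µM. Of 6 mesenchymal markers 5 reached 1 CPM, and their sum was lower at 100 µM, at 1308 to 1353 CPM, than at 0 µM, at 1391 to 1405 CPM, with no overlap. PDGFRB (log2 fold change -0.27, adjusted p = 0.00112) and COL3A1 (log2 fold change -0.11, adjusted p = 0.0336) passed the test as lower at 100 µM. Of all tested genes, 4.8% were called lower in this comparison. For 13.9% all 3 libraries at 100 µM lay below all 3 at 0 µM, and no such share was computed for sums of genes. COL3A1 made up most of the sum, with 885 ± 19.4 CPM at 100 µM, against 952 ± 5.43 CPM at 0 µM (SD, n = 3 each). The other 4 did not pass: COL1A1 (log2 fold change 0.20, adjusted p = 0.0509) and THY1 (log2 fold change 0.15, adjusted p = 0.79) had estimates above 0, TAGLN (log2 fold change -0.08, adjusted p = 0.34) below it and VIM (log2 fold change 0.0018, adjusted p = 0.99) near it, and the list median was -0.04. The part of this difference in the results below was not tested, and fewer cells of a type cannot be told apart from less RNA per cell.

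Compared per gene length, in the deposited FPKM (reads divided by gene length and library size), the 10 mRNAs formed a high and a low tier. That length counts every base in any annotated exon of the gene, 5550 for EIF2AK1 and 11957 for EIF2AK4. It is not the length of the transcripts present, which was not measured, so the order across genes holds for FPKM only. PPP1R15B, the constitutive phosphatase subunit known as CReP, averaged 37.4 ± 1.29 FPKM over the 21 libraries (SD). The substrate EIF2S1 averaged 35.1 ± 0.904, GCN1 34.1 ± 1.24 and the heme-regulated kinase EIF2AK1 32.8 ± 0.775 FPKM. The ranges of neighbours in that order overlapped. After a gap came PPP1R15A at 10.2 ± 0.908, EIF2AK2 at 8.13 ± 0.418, EIF2B5 at 8.03 ± 0.307 and EIF2AK4 at 7.33 ± 0.284 FPKM. EIF2AK2 ran from 7.47 to 8.99 FPKM and EIF2B5 from 7.46 to 8.91, so their order does not stand out from the spread. EIF2AK3 at 4.00 ± 0.288 and OMA1 at 2.29 ± 0.150 FPKM were the least abundant and did not overlap each other or the genes above them. OMA1 rested on 238 to 373 counts per library, the thinnest data of the 10.

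**Figure D1:**
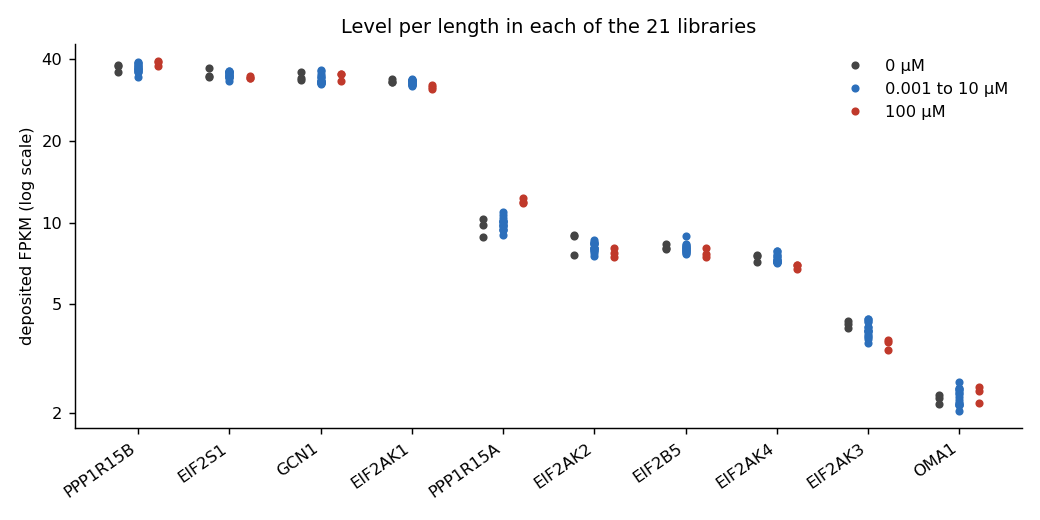
Deposited FPKM (log scale) of each of the 10 genes in all 21 libraries, 1 point per library, with 0 µM, 0.001 to 10 µM and 100 µM side by side. PPP1R15B, EIF2S1, GCN1 and EIF2AK1 lie between 31.1 and 39.3 FPKM, and the other 6 genes lie at 12.3 FPKM or below.

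Taking the 4 kinases together within a library, EIF2AK1 made up 62.8% of their summed FPKM on average, EIF2AK2 15.6% and EIF2AK3 7.65%, with EIF2AK4 between the last 2. In FPKM the summed kinase level was therefore mostly EIF2AK1, the kinase known for its response to heme shortage and, through OMA1 and DELE1, to mitochondrial stress. In CPM, without division by length, EIF2AK1 averaged 177, EIF2AK4 85.4, EIF2AK2 85.2 and EIF2AK3 21.2 over the 21 libraries.

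At 100 µM, 2 of the 10 mRNAs passed the test against 0 µM. PPP1R15A, the stress-inducible subunit known as GADD34, rose, and EIF2AK3, the endoplasmic reticulum kinase known as PERK, fell. The share of all 16196 tested genes called in this comparison was 8.47%, with 3.66% higher and 4.8% lower. The median log2 fold change was -0.05 over the 10 genes and 0.0024 over all tested genes. A further 3 genes, EIF2AK1, EIF2AK2 and EIF2AK4, had an unadjusted p under 0.05 without passing, so 5 of 10 did, against 23.2% of all genes.

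PPP1R15A (chr19:48872392-48876057, GRCh38, plus strand) shares no exon base with another annotated gene. The sequence upstream of its start is shown because this gene passed at 100 µM against 0 µM in every fit tried, and it holds 1 of the motifs that were searched for. It is chr19:48872171-48872391 on the plus strand of GRCh38.p14 (RefSeq), is written 5′ to 3′, and carries the cAMP response element TGACGTCA, which reads the same on both strands, in capitals at -58 to -51 from the RefSeq start.
PPP1R15A: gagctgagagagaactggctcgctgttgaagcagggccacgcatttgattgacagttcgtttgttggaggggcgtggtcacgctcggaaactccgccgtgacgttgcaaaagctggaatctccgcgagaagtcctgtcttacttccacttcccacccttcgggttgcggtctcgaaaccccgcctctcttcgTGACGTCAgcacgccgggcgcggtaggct
The constitutive subunit's gene PPP1R15B (chr1:204403387-204411791, minus strand) is shown for comparison, chr1:204411818-204412067 on the minus strand of the same build. Its capitals mark TGATGCAA, a C/EBP-ATF composite motif (TTGCATCA on the other strand), at -227 to -220.
PPP1R15B: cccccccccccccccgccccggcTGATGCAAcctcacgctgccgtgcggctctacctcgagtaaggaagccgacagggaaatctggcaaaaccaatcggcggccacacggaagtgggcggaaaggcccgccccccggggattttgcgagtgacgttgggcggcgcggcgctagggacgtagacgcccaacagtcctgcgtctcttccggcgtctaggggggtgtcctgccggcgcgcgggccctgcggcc
Among 35116 RefSeq promoter windows of 250 bases before to 50 after a start, searched on both strands, TGACGTCA occurred in 1.85% and TGATGCAA in 0.866%. Of the 9 genes of the 10 with a window, PPP1R15A was the 1 that held the first and PPP1R15B the 1 that held the second. An interferon response core, GAAA, 2 bases of any kind and GAAA, occurred in 3.57% of windows and in that of EIF2AK2 at -6 to 3. The endoplasmic reticulum stress element, CCAAT, 9 bases of any kind and CCACG, occurred in 0.0769% of windows and in 0 of the 9. These matches describe letters and not binding.

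PPP1R15A stood at 37.2, 35.9 and 36.0 CPM at 100 µM, against 30.8, 27.0 and 29.5 CPM at 0 µM, in counts scaled by the TMM (trimmed mean of M-values) factor of each library. The 3 libraries at 100 µM lay above the other 18, of which the highest was 32.7 CPM. The means were 36.4 ± 0.708 CPM at 100 µM and 29.1 ± 1.95 CPM at 0 µM (SD, n = 3 each), a 1.25-fold difference (log2 fold change 0.32, SE 0.06, 95% interval 0.20 to 0.43, edgeR adjusted p = 0.000486). The call held in all 21 fits that left out a library.

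At the lower doses PPP1R15A showed no change that passed the test. It had 29.5, 29.9 and 32.7 CPM at 0.001 µM, 31.5, 32.3 and 28.7 CPM at 0.01 µM and 30.1, 28.3 and 29.4 CPM at 0.1 µM. At 1 µM it had 28.9, 27.3 and 30.6 CPM, and at 10 µM 29.3, 30.5 and 30.3 CPM. The groups from 0 to 10 µM overlapped one another. At 10 µM against 0 µM the difference was small (log2 fold change 0.04, SE 0.06, 95% interval -0.07 to 0.16, edgeR adjusted p = 0.8), an interval whose upper bound lies below the estimate at 100 µM.

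PPP1R15A was also the 1 of the 10 that passed when 100 µM was set against the mean of 0.001 to 1 µM (log2 fold change 0.28, SE 0.04, 95% interval 0.19 to 0.37, edgeR adjusted p = 5.72e-05). The control libraries have no weight in that contrast, but they enter the filter, the scaling and the estimate of spread. Of all genes 9.72% were called in that contrast, 4.24% higher and 5.48% lower. Over the 7 groups it was again the 1 called, with an adjusted p of 0.00227 in edgeR, against 4.35% of all genes. The slope over log10 dose among the 18 treated libraries called 0 of the 10 in edgeR and in DESeq2, against 2.63% of all genes in edgeR, 1.21% higher and 1.42% lower. PPP1R15A had a slope of 0.03 on the log2 scale per 10-fold dose (SE 0.01, adjusted p = 0.24), and 2 of the 10 had an unadjusted p under 0.05, against 14.5% of all genes.

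**Figure D2:**
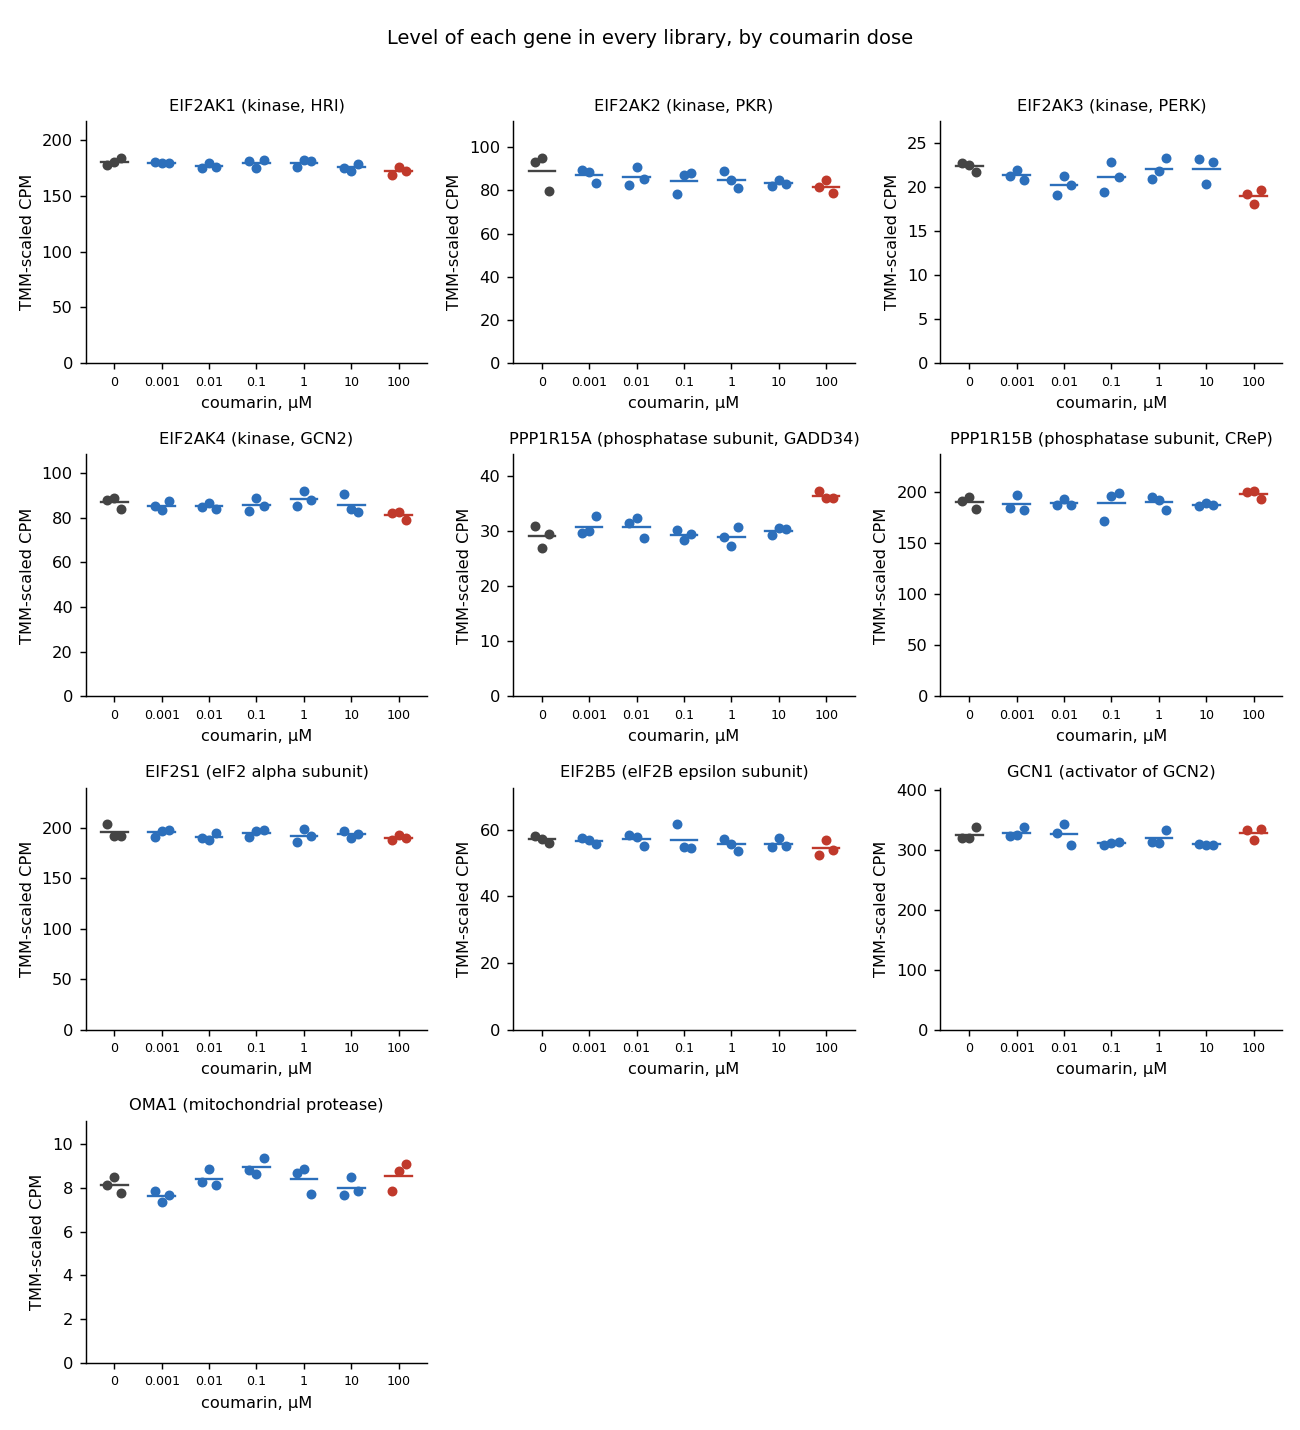
TMM-scaled CPM of each gene by coumarin dose in µM, 1 point per library and a line at the mean of each group of 3. The PPP1R15A points at 100 µM lie between 35.9 and 37.2 CPM, above all others, and those of EIF2AK3 at 100 µM lie between 18.1 and 19.7 CPM, below all 3 at 0 µM.

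PPP1R15B is the subunit that cells make without stress. It had 200.4, 201 and 194 CPM at 100 µM and 192, 195 and 183 CPM at 0 µM, and the groups overlapped (log2 fold change 0.06, SE 0.04, 95% interval -0.03 to 0.15, edgeR adjusted p = 0.43). Within a library the ratio of PPP1R15A to PPP1R15B in FPKM was 0.313, 0.302 and 0.314 at 100 µM and 0.272, 0.234 and 0.272 at 0 µM. All 3 ratios at 100 µM were above the 3 controls, with means of 0.310 ± 0.0068 at 100 µM and 0.259 ± 0.0221 at 0 µM (SD, n = 3 each). The difference in mean log2 ratio was 0.26, and a 2-sided exact permutation test gave p = 0.1, the smallest that 3 against 3 allows. Group means from 0.001 to 10 µM ran from 0.257 to 0.276, and 1 library at 0.001 µM, with 0.302475, was just above the lowest library at 100 µM, with 0.301981. PPP1R15B was the more abundant of the pair in every library.

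**Figure D3:**
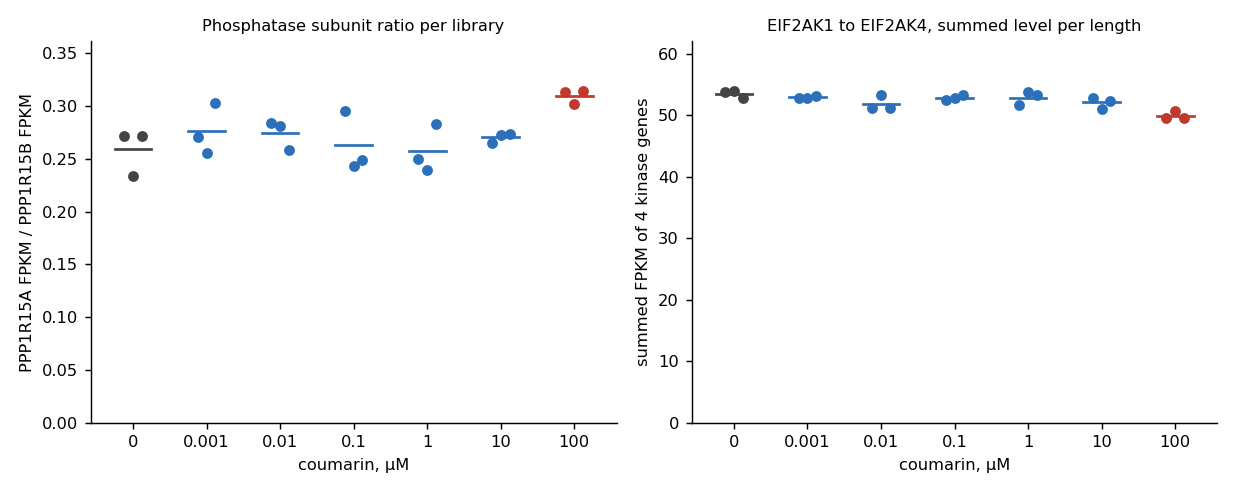
Left, the ratio of PPP1R15A to PPP1R15B FPKM in each library by dose in µM; right, the summed FPKM of the 4 kinase genes, with a line at each group mean. At 100 µM the ratio averages 0.310 and the kinase sum 49.9 FPKM, and at 0 µM they average 0.259 and 53.5 FPKM.

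The 4 kinase genes had estimates below 0 at 100 µM against 0 µM, and 1 of them passed the test. EIF2AK3 (chr2:88556741-88627576, minus strand) encodes PERK, which senses unfolded protein in the endoplasmic reticulum. It had 19.3, 18.1 and 19.7 CPM at 100 µM, against 22.8, 22.6 and 21.7 CPM at 0 µM, and the groups did not overlap. The means were 19.0 ± 0.818 CPM at 100 µM and 22.4 ± 0.566 CPM at 0 µM (SD, n = 3 each; log2 fold change -0.23, SE 0.07, 95% interval -0.37 to -0.10, edgeR adjusted p = 0.0236). This call was lost in 4 of the 21 fits that left out a library. These were without replicate 1 at 0 µM (log2 fold change -0.21, adjusted p = 0.10), without replicate 2 at 0 µM (-0.23, adjusted p = 0.073), without replicate 1 at 100 µM (-0.24, adjusted p = 0.071) and without replicate 2 at 100 µM (-0.19, adjusted p = 0.12). Calls over all genes also fell in those fits, to 787, 761, 681 and 1017 in that order, from 1371 with all libraries.

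EIF2AK3 was less clearly apart from the other treated groups. It had 21.3, 21.9 and 20.9 CPM at 0.001 µM, 19.1, 21.3 and 20.2 CPM at 0.01 µM and 19.5, 22.9 and 21.1 CPM at 0.1 µM. At 1 µM it had 20.9, 21.8 and 23.3 CPM and at 10 µM 23.2, 20.3 and 22.8 CPM. Replicate 1 at 0.01 µM and replicate 1 at 0.1 µM lay inside the range of the 100 µM group. All 3 libraries at 0.01 µM also lay below the 3 at 0 µM, without passing (log2 fold change -0.15, edgeR adjusted p = 0.55). Lying below the controls was thus not particular to 100 µM for EIF2AK3. The share of all genes beyond the controls was not computed at 0.01 µM. Against the mean of 0.001 to 1 µM, 100 µM did not pass (log2 fold change -0.15, SE 0.05, 95% interval -0.26 to -0.05, edgeR adjusted p = 0.0591), and it did pass when replicate 1 at 0.01 µM or replicate 1 at 0.1 µM was left out. Over the 7 groups EIF2AK3 had an adjusted p of 0.16. Of its exon bases 14.4% overlap AC104134.1 on the other strand, which had 23 reads in all 21 libraries.

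EIF2AK4 (chr15:39934146-40035591, plus strand) encodes GCN2, the sensor of uncharged tRNA. It had 81.9, 82.3 and 79.0 CPM at 100 µM and 87.7, 89.0 and 83.9 CPM at 0 µM, lower in every library at 100 µM, but the difference did not pass (log2 fold change -0.10, SE 0.04, 95% interval -0.18 to -0.01, edgeR adjusted p = 0.14). EIF2AK1 (chr7:6022244-6059230, minus strand) likewise had 169, 175 and 172 CPM at 100 µM and 177, 180.3 and 183 CPM at 0 µM, without overlap and without passing (log2 fold change -0.07, SE 0.03, 95% interval -0.13 to -0.0032, edgeR adjusted p = 0.19). It shares 532 exon bases, 9.59% of its own, with AIMP2 on the opposite strand, which had 49.9 CPM, and whether the counting used strand is not given in the sources used here. EIF2AK2 (chr2:37099210-37157065, minus strand), the double-stranded RNA sensor PKR, had 81.6, 84.9 and 78.6 CPM at 100 µM and 93.0, 94.9 and 79.5 CPM at 0 µM, where replicate 3 at 0 µM lay inside the 100 µM range (log2 fold change -0.12, SE 0.06, 95% interval -0.24 to -0.01, edgeR adjusted p = 0.17). Without that library EIF2AK2 passed (-0.20, adjusted p = 0.017).

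Summed over the 4 kinases, the level per length was 49.5, 50.7 and 49.5 FPKM at 100 µM, against 53.8, 53.9 and 52.8 FPKM at 0 µM. The 3 sums at 100 µM were below the other 18 libraries, of which the lowest was 50.9 FPKM at 10 µM. How often genes or sums lie beyond all 18 was not computed. EIF2AK1, which did not pass the test, made up 63.4% of the sum at 100 µM on average. EIF2AK3 made up 7.18 ± 0.410% of the sum at 100 µM and 7.89 ± 0.147% at 0 µM (SD, n = 3 each).

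Counting libraries in place of p-values, 4 of the 10 genes had all 3 libraries at 100 µM beyond all 3 at 0 µM in CPM: PPP1R15A higher, and EIF2AK1, EIF2AK3 and EIF2AK4 lower. The same held for 27% of all tested genes, 13.1% higher and 13.9% lower.

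**Figure D4:**
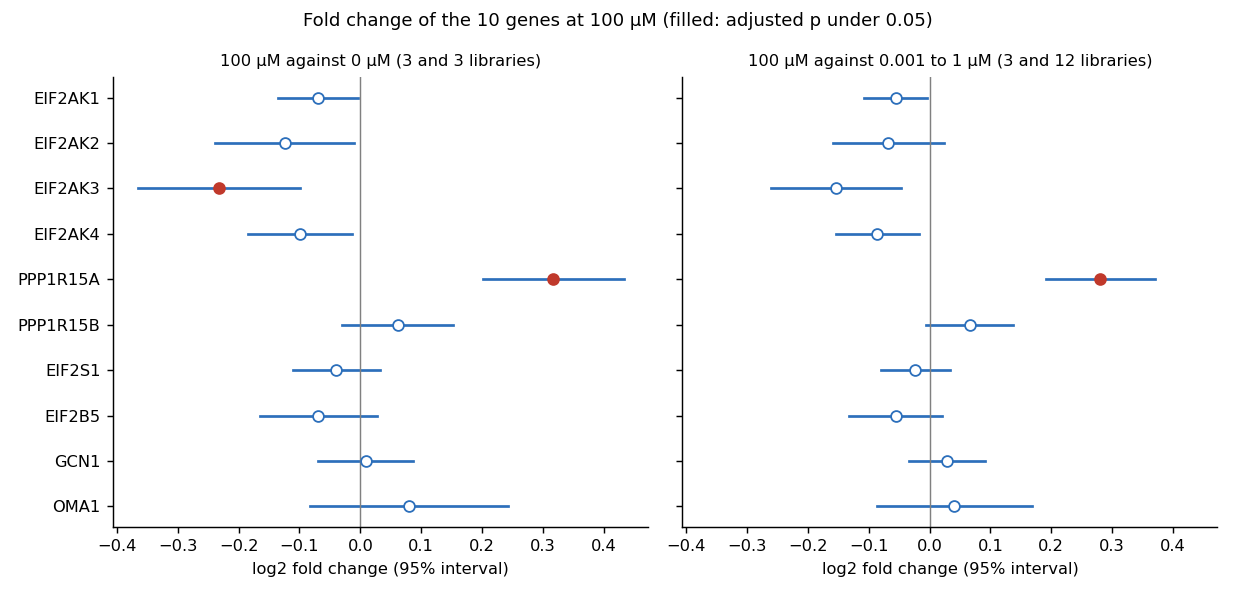
Log2 fold change of each gene with its 95% interval at 100 µM, against 0 µM and against the mean of 0.001 to 1 µM. PPP1R15A is at 0.32 against 0 µM and 0.28 against the lower doses, EIF2AK3 is at -0.23 and -0.15, and the other 8 genes lie between -0.12 and 0.08 against 0 µM.

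The substrate, its exchange factor and the upstream activators did not pass at 100 µM. EIF2S1 (chr14:67359997-67386516, plus strand), which encodes the alpha subunit itself, had 188, 193 and 189 CPM at 100 µM and 203, 192 and 191 CPM at 0 µM, with overlap (log2 fold change -0.04, SE 0.03, 95% interval -0.11 to 0.03, edgeR adjusted p = 0.55). It shares 269 exon bases, 4.76% of its own, with ATP6V1D on the other strand at 62.4 CPM. EIF2B5 (chr3:184135038-184146112, plus strand), the catalytic subunit of eIF2B, had 52.3, 57.0 and 53.9 CPM at 100 µM and 58.1, 57.1 and 56.2 CPM at 0 µM, with overlap (log2 fold change -0.07, SE 0.05, 95% interval -0.17 to 0.03, edgeR adjusted p = 0.4). GCN1 (chr12:120127203-120194710, minus strand), which binds ribosomes and activates GCN2, had 333, 316 and 334 CPM at 100 µM and 319, 319 and 338 CPM at 0 µM, with overlap (log2 fold change 0.01, SE 0.04, 95% interval -0.07 to 0.09, edgeR adjusted p = 0.92). OMA1 (chr1:58415384-58546802, minus strand), which cleaves DELE1 under mitochondrial stress, had 7.85, 8.76 and 9.08 CPM at 100 µM and 8.12, 8.47 and 7.77 CPM at 0 µM, also with overlap (log2 fold change 0.08, SE 0.08, 95% interval -0.08 to 0.24, edgeR adjusted p = 0.6). For EIF2S1, EIF2B5 and GCN1 the intervals leave out changes beyond 0.17 on the log2 scale in either direction, and for OMA1 the upper bound was 0.24.

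Below 100 µM, edgeR called 0 of the 10 genes at any dose against 0 µM, and DESeq2 also called 0. At 0.001, 0.01, 0.1 and 1 µM the share of all genes called was 0%, 0.00617%, 0.00617% and 0%, and at 10 µM it was 0.327%, 0.241% higher and 0.0864% lower. An unadjusted p under 0.05 was found for 1 of the 10 at 0.01 µM, EIF2AK3, and for 0 at the other doses, against 8.42%, 8.81%, 6.27%, 3.91% and 12.2% of all genes from 0.001 to 10 µM. The 95% intervals of the 10 genes ran from -0.25 to 0.19 at 0.001 µM, -0.28 to 0.22 at 0.01 µM and -0.21 to 0.30 at 0.1 µM. At 1 µM they ran from -0.18 to 0.22 and at 10 µM from -0.21 to 0.16. Set against the mean of 0.001 to 1 µM, 10 µM also had 0 of the 10 called in edgeR and in DESeq2, and 0 at an unadjusted p under 0.05, against 0.161% of all genes called, 0.0803% in each direction, and 8.82% at an unadjusted p under 0.05. The mean of 0.001 to 1 µM against 0 µM had 0 of the 10 called by both tools, and 0 at an unadjusted p under 0.05, against 0.00617% and 7.56% of all genes.

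The other 8 genes, those not called at 100 µM against 0 µM, are given by the range of their 7 group means. Among the kinases, EIF2AK1 had group means of 172 to 180.3 CPM, EIF2AK2 of 81.7 to 89.1 CPM and EIF2AK4 of 81.1 to 88.1 CPM. PPP1R15B had group means of 188 to 198 CPM, EIF2S1 of 190.1 to 195 CPM and EIF2B5 of 54.4 to 57.2 CPM. GCN1 ran over 309 to 328 CPM and OMA1 over 7.63 to 8.95 CPM. Groups could lie beyond all 3 controls without passing, and 2 examples are given, picked after their values were seen. The share of all tested genes beyond the controls was 27% at 100 µM. It was not computed at the lower doses, so these examples have no share to be set against. GCN1 had 309.5, 308 and 308 CPM at 10 µM, below the 3 controls (log2 fold change -0.08, SE 0.04, 95% interval -0.15 to 0.0029, edgeR adjusted p = 0.43). OMA1 had 8.81, 8.65 and 9.38 CPM at 0.1 µM, above the 3 controls (log2 fold change 0.14, SE 0.08, 95% interval -0.02 to 0.30, edgeR adjusted p = 0.81).

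Genes linked to the same step were read from lists of related genes. For the counts at 100 µM against 0 µM, 8.47% of all tested genes were called, 3.66% higher and 4.8% lower. An unadjusted p under 0.05 was found for 23.2% of them. The lists below with 1 gene called of 9 and 1 of 11 are near the share called. The remaining eIF2 and eIF2B subunits had 0 of 6 called at 100 µM in edgeR and in DESeq2, with 2 at an unadjusted p under 0.05 and estimates from 0.0031 to 0.13; EIF2B2, a regulatory eIF2B subunit, came nearest (log2 fold change 0.13, adjusted p = 0.0988). The catalytic subunits of protein phosphatase 1, which PPP1R15A and PPP1R15B recruit, had 0 of 3 called in edgeR, 2 at an unadjusted p under 0.05, and 2 in DESeq2. PPP1CC (log2 fold change -0.11, adjusted p = 0.0558) and PPP1CB (log2 fold change -0.12, adjusted p = 0.0723) were below 0 and PPP1CA (log2 fold change 0.08, adjusted p = 0.36) above it.

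Of 9 regulators of the kinases 1 was called, HSPA5, the chaperone BiP that holds PERK inactive. HSPA5 fell to 911 ± 0.795 CPM at 100 µM, against 1013 ± 13.5 CPM at 0 µM (SD, n = 3 each; log2 fold change -0.15, adjusted p = 0.00184). The PERK and PKR inhibitor DNAJC3 did not pass (log2 fold change -0.14, adjusted p = 0.0726), nor did the chaperone HSP90AA1 (log2 fold change -0.11, adjusted p = 0.12) or TARBP2, an inhibitor of PKR (log2 fold change 0.12, adjusted p = 0.2). DELE1, the OMA1 substrate that activates EIF2AK1, was named for its role after its value was seen (log2 fold change 0.06, adjusted p = 0.38). Of 11 genes of mitochondrial inner membrane quality control 1 was called: OPA1, a fusion protein that OMA1 cleaves, fell to 86.9 ± 3.53 CPM at 100 µM, against 102 ± 6.04 CPM at 0 µM (log2 fold change -0.23, adjusted p = 0.00573), and 0 of the 11 were called without replicate 1 at 100 µM. The matrix protease LONP1 (log2 fold change 0.15, adjusted p = 0.0618) and the protease HTRA2 (log2 fold change 0.14, adjusted p = 0.22) did not pass.

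Other initiation factors went both ways, with 2 higher and 2 lower of 12. EIF1, a factor for start codon selection, rose to 448 ± 17.3 CPM at 100 µM, against 355 ± 2.33 CPM at 0 µM (log2 fold change 0.34, adjusted p = 2.68e-07), and EIF4EBP1, the inhibitor of eIF4E, rose to 182 ± 8.93 CPM at 100 µM, against 146 ± 10.3 CPM at 0 µM (log2 fold change 0.31, adjusted p = 0.000481). EIF2A, a separate factor that is not the alpha subunit of eIF2, fell to 86.4 ± 3.63 CPM at 100 µM, against 103 ± 3.61 CPM at 0 µM (log2 fold change -0.25, adjusted p = 0.000908). EIF5B, which joins the ribosomal subunits, fell to 185 ± 7.12 CPM at 100 µM, against 207 ± 6.37 CPM at 0 µM (log2 fold change -0.16, adjusted p = 0.0434).

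Downstream, 19 of 22 genes of the ATF4 programme rose at 100 µM and 0 fell, with a median log2 fold change of 0.73. The 4 with the smallest p were CHAC1 (log2 fold change 2.87, adjusted p = 4.08e-19), STC2 (log2 fold change 1.17, adjusted p = 4.61e-15), SESN2 (log2 fold change 1.42, adjusted p = 1.25e-13) and ATF3 (log2 fold change 1.77, adjusted p = 1.25e-13). ATF4, the transcription factor itself, was named for its role after its value was seen and had 476 ± 6.37 CPM at 100 µM, against 378 ± 17.9 CPM at 0 µM (log2 fold change 0.34, adjusted p = 2.41e-06). The list was drawn up with earlier results of these libraries known, so its direction is not independent evidence. Genes of the ATF6 and IRE1 branches of the endoplasmic reticulum response had 2 higher and 2 lower of 16: XBP1 (log2 fold change 0.19, adjusted p = 0.00052) and HERPUD1 (log2 fold change 0.12, adjusted p = 0.0448) rose, and HSPA5 and HSP90B1 (log2 fold change -0.12, adjusted p = 0.0201) fell. That count was 2 of 16 without replicate 1 at 0 µM, replicate 1 at 100 µM or replicate 3 at 100 µM. Interferon-stimulated genes, a group to which EIF2AK2 belongs, had 0 of 13 tested called in edgeR and in DESeq2, with 2 at an unadjusted p under 0.05 in edgeR. OAS3 (log2 fold change 0.34, adjusted p = 0.11), IFI6 (log2 fold change 0.39, adjusted p = 0.15), IFIT1 (log2 fold change -0.34, adjusted p = 0.23) and ADAR (log2 fold change -0.07, adjusted p = 0.25) were on both sides of 0.

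**Figure D5:**
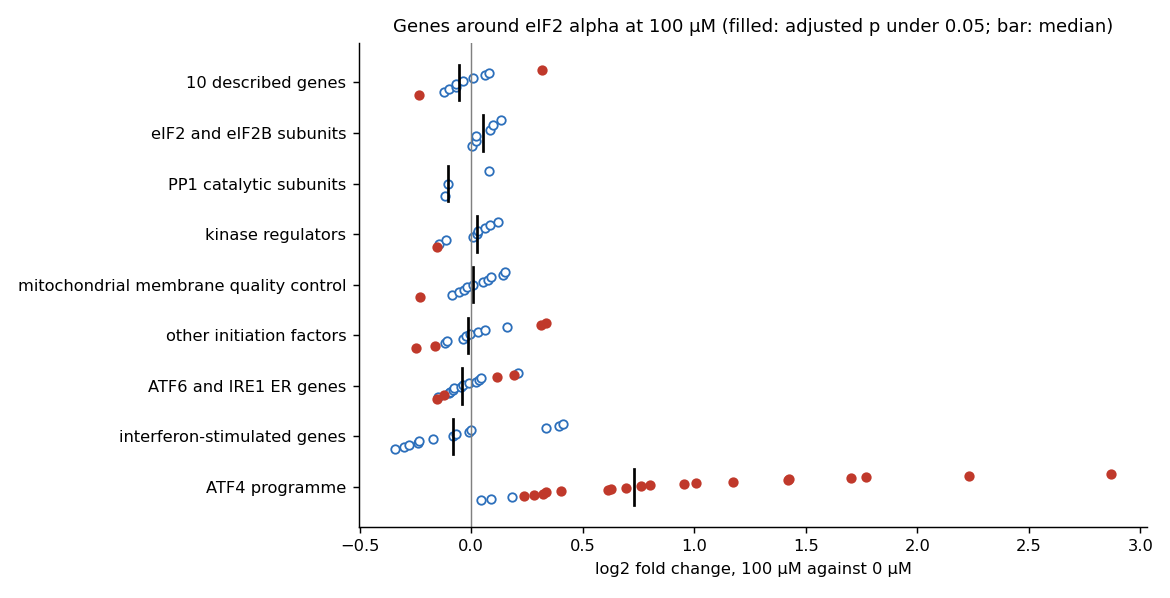
Log2 fold change at 100 µM against 0 µM of the 10 described genes and of the lists of related genes, 1 point per gene, filled where the adjusted p was under 0.05, with a bar at the list median. The ATF4 programme has its median at 0.73, and the median of the 10 genes is -0.05.

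Among all tested genes, those whose levels ran most like PPP1R15A over the 21 libraries were AARS (Pearson r = 0.931), C19orf48 (0.921), CASC3 (0.920), MARS (0.911), NFE2L1 (0.904) and RRP12 (0.903). AARS and MARS encode tRNA ligases. Spearman's rho for these 6 was 0.804 to 0.819. Without the 3 libraries at 100 µM the same 6 genes had r from 0.698 to 0.764 over 18 libraries. The 6 were picked on all 21 libraries, which include these 18, so this is not a separate check. The most negative were VAV3 (-0.905), MALT1 (-0.900) and NPEPPS (-0.895). Among the other 9 described genes r with PPP1R15A was highest for GCN1 at 0.492 and lowest for EIF2AK4 at -0.643, with EIF2AK3 at -0.628 and PPP1R15B at 0.217. These values share libraries and depth and are given as a description.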

How the data were processed

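The labels' protocols describe poly(dT) bead selection and cDNA synthesis with SmartScribe. The authors deposited whole-number read counts per gene without normalization, and FPKM values scaled by gene length and library size. HISAT2, DESeq2 and the build GRCh38 are named per the submitters' processing notes, with no role. Counting tool, annotation release and strand use: not given in the sources used here. GENCODE 29 places all 10 genes at the deposited coordinates.

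Groups came from the sample labels. Counts were tested with edgeR 4.0.16 (R 4.3.3): filterByExpr, TMM scaling, and 1 quasi-likelihood model of the 7 groups (21 libraries, 14 residual degrees of freedom, or 18 libraries for the slope). Benjamini-Hochberg adjustment ran over 16196 of 58735 genes, with a threshold of 0.05, and each SE was derived from a fold change and its F value. The procedure was also run on simulated counts built from the mean levels and spread of these data, and the outcome is not given here. Total counts of 27984517 to 43704155 put 3 counts at 0.0686 to 0.107 CPM, counting error only.

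The 10 genes and 11 lists (117 entries, all matched, 99 tested) were chosen with earlier results of these data known. Named were all 10 genes, up to 4 genes of each list with the smallest p at 100 µM, and, for the gene with the smallest p over the 7 groups, the 6 tested genes with the highest and the 3 with the most negative correlation with it. DELE1 and ATF4 were added for their roles, and THY1 and VIM to complete the mesenchymal list, after their values were seen. Alternatives were DESeq2 1.42.0 and its size factors, limma 3.58.1 on log2(FPKM + 1), other filters, gene length offsets, fits of 6 libraries, a block on the replicate number, and each library left out. Promoters are from RefSeq (GRCh38.p14, 9 of 10 genes matched, all but EIF2AK1), cut to the bases before both annotated starts. Figures were drawn with matplotlib 3.10.9.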

Additional observations from a re-analysis of the deposited data

How the results depend on the processing

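Against 0 µM at 100 µM, PPP1R15A passed in all 9 other settings, at 0.29 to 0.32, and in all 21 fits that left out a library, at 0.27 to 0.37. EIF2AK3 passed in the same 9 settings, at -0.23 to -0.19, but in 17 of 21 fits with a library left out. Leaving out a library gave 1 to 3 of the 10 genes called against 0 µM and 1 to 2 against the mean of 0.001 to 1 µM. GCN1 changed sign in 2 of 21 such fits, between -0.0067 and 0.042. Over the whole table, 1371 genes were called at 100 µM against 0 µM, with a low of 681 without replicate 1 at 100 µM and a high of 1786 without replicate 1 at 0.1 µM. At 10 µM 53 were called, against 7 without replicate 2 at 0 µM, 159 without replicate 1 at 0.1 µM, 155 with DESeq2, 17 with limma and 379 without a filter on low counts. At 10 µM against 0.001 to 1 µM 26 were called, 62 with DESeq2, 8 with limma, 170 without a filter, and 6 to 60 with a library left out. Over the 7 groups 705 were called, 1139 with DESeq2, 1519 without a filter, and 344 to 1064 with a library left out. With a library left out, the count against 0.001 to 1 µM at 100 µM ran from 817 to 1938 and that of the slope from 205 to 489. From 0.001 to 1 µM, where 0 or 1 gene was called, 41 to 66 were without a filter and at most 3 under the other settings. Called related genes moved by over 1.5 times in 27 recomputed list counts and stayed within it in 273. Of the mesenchymal markers 1 was called in place of 2 in 6 of 21 such fits. Depth limits OMA1 most.

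With the replicate number as a block, PPP1R15A was at 0.32 (adjusted p = 0.000643) and EIF2AK3 at -0.23 (adjusted p = 0.0292), and 1318 genes were called in place of 1371. Deviations of same-numbered libraries correlated at -0.0950 to 0.0751 over 63 pairs, so no pairing by number was detected. A weak pairing could be hidden by counting noise over all genes.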
